A study of Rattus norvegicus with 96 samples.

Results

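P rats were bred for high voluntary alcohol drinking and NP rats for low drinking, and their central amygdala was compared on 20 microarrays, 10 of each line. The 20 arrays are those whose titles name this line pair, out of 96 arrays from 10 rat lines that form 5 such pairs. Each title names an animal of its own, and all tissue came from the central nucleus of the amygdala. Sex, age, alcohol exposure and dates are not in these labels, nor is any transgene or treatment. P-values measure the spread between animals within each line. With 1 P and 1 NP line, alleles fixed by selection and alleles fixed by drift cannot be told apart.

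The central nucleus is the main output of the amygdala and is built mostly of GABA-releasing neurons, many of which also make peptides such as corticotropin-releasing hormone, neurotensin, somatostatin and enkephalin. It sends fear, stress and appetite signals to the brainstem and hypothalamus, and work on alcohol dependence has long centred on its GABA, opioid, neuropeptide Y and corticotropin-releasing hormone systems. The question for this pair is which genes are expressed at different levels in that nucleus in the line that prefers alcohol and in the line that does not.

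Before any gene was compared, each array was placed between both lines. For each array in turn, the 100 probe sets that best separated P from NP in the other arrays were picked, on odd-numbered and on even-numbered chromosomes separately, and the array's median position on them was scored, with +1 at the P median and -1 at the NP median. P 9 scored -1.28 on odd-numbered and -1.16 on even-numbered chromosomes, and P 1 scored -1.10 and -1.01, so both carry values like those of NP animals. NP 9 scored 0.92 and 1.06, among the P arrays, and NP 1 scored 0.49 and 0.27. The other 16 arrays lay on the side of their own label in both scores. Closest to the midpoint among these were P 2 (0.04 and 0.72) and NP 6 (-0.16 and -0.42). The same 4 arrays lay on the side of the other line in both scores when 50 or 200 probe sets were used, and with 200 NP 6 crossed to the P side on odd-numbered chromosomes alone (0.08). The 4 arrays carry the numbers 1 and 9 in both lines. The nearest array by the spread of probe set differences belonged to the other line for 6 of the 20 arrays. All 4 misfits were among the 6, with P 9 nearest to NP 2 and NP 9 nearest to P 10. The rest were P 4 (nearest to NP 6) and P 6 (nearest to NP 9). This spread also covers tissue markers. P 9 and NP 2 had the highest basolateral and cortical excitatory neuron levels (9.95 and 9.06) and the lowest oligodendrocyte levels (10.90 and 11.43). How far nearness reflects tissue was not tested. Whether samples were exchanged between both lines, or whether the misfit animals carry alleles of the other line, was not tested, and no label was changed. The values below are therefore given as labelled and also without the 4 misfits, which leaves 8 P and 8 NP arrays. Leaving out arrays because they resemble the other line raises differences by construction.

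**Figure D1:**
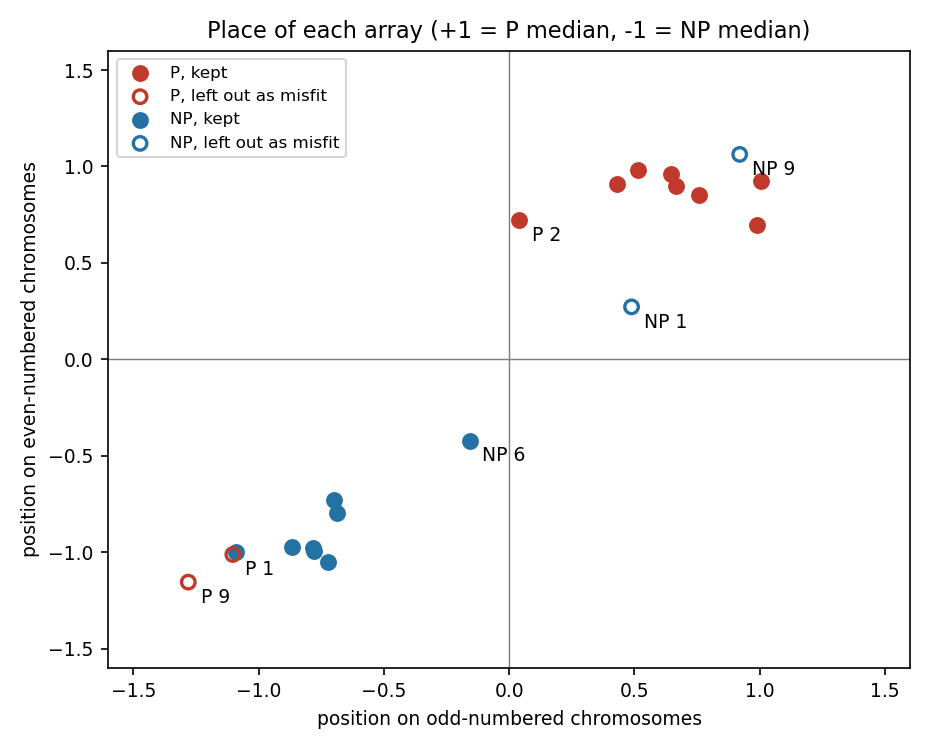
Position of each of the 20 arrays between the lines, scored without that array, on odd-numbered (horizontal axis) and even-numbered chromosomes (vertical axis), where +1 is the P median and -1 the NP median; open circles are the 4 misfits. P 1 and P 9 lie among the NP arrays, NP 9 lies among the P arrays, and NP 1 (0.49 and 0.27) and NP 6 (-0.16 and -0.42) lie between both clouds.

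P 5 stood apart on other genes. The choroid plexus is the tissue in the brain ventricles that makes cerebrospinal fluid, and the mean log2 level of its 11 measured markers was 11.33 in P 5 against 6.28 to 6.74 in the other 19 arrays. Transthyretin (Ttr), the most abundant choroid plexus transcript, stood at 15.05 in P 5, at 9.12 in NP 5, 8.85 in P 9 and 8.09 in P 10, and between 6.10 and 6.46 in the other 16 arrays. Of the 11 markers, 9 were highest in P 5. Blood markers were also highest there (9.45). P 5 had the lowest mean correlation with the other arrays (0.975, against 0.983 to 0.992) and alone set the second principal component, which holds 18% of the variance. Results are therefore also given without P 5 where that matters. Markers of neighbouring tissue also varied. The mean level of basolateral and cortical excitatory neuron markers ran from 7.56 to 9.95 and was highest in P 9, which also had the lowest oligodendrocyte level (10.90, against up to 12.79 in NP 8).

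**Figure D2:**
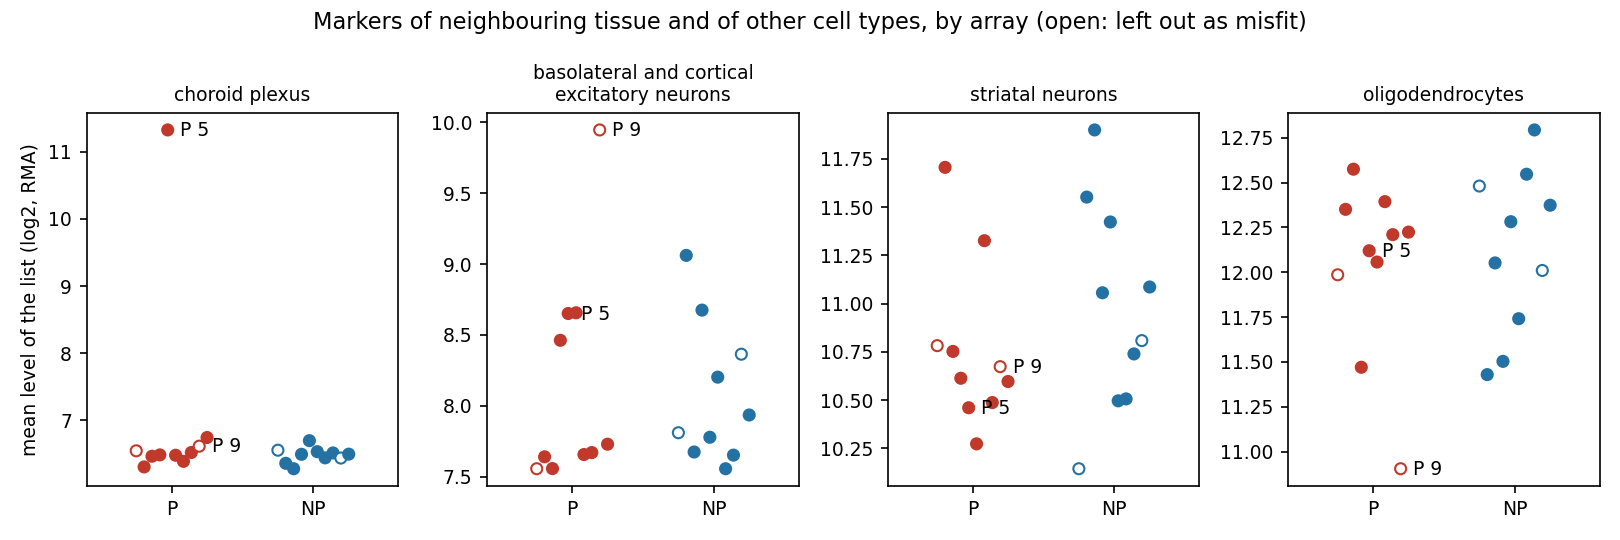
Mean log2 level of 4 marker lists in each P and NP array, with open circles for the 4 misfits. P 5 (11.33) is far above all other arrays for choroid plexus, P 9 is highest for basolateral and cortical excitatory neurons (9.95) and lowest for oligodendrocytes (10.90), and P and NP overlap in every list.

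The defining markers of the central nucleus were present in both lines. Gad1, an enzyme that makes GABA, lay between 13.80 and 14.46 in all 20 arrays and enkephalin (Penk) between 13.27 and 14.92, while Prkcd, which marks one large class of central amygdala neurons, lay between 8.81 and 10.15. Array medians ran from 7.92 to 8.02. The Y-linked genes Eif2s3y (10.67 to 11.29) and Uty (9.27 to 9.98) were high and Xist was low (4.03 to 4.39) on every array. GAPDH probe sets at the 3' and 5' ends of the transcript, whose difference is a sign of RNA quality, differed (3' minus 5', log2) by a median of 0.18 in P and 0.22 in NP, with the highest value in NP 10 (0.64). For beta-actin the medians were 1.94 and 2.03, again highest in NP 10 (3.33), which is not a misfit and was kept. For hexokinase they were 0.83 and 0.80, highest in NP 8 (1.15).

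As labelled, no probe set passed the test between P and NP: 0 of 31042 (percent called 0) passed limma with Benjamini-Hochberg adjustment at 0.05, and 1523 (4.91%) had an unadjusted p under 0.05, of which 725 were higher in P (2.34%) and 798 lower (2.57%). Both groups were fully apart at 0 probe sets (0%). The count past the test moved with single animals. It was 25 without NP 9, 6 without P 9, 5 without P 1 and 1 without P 2, and 0 without any one of the other 16 arrays. Without the 4 misfits, 502 probe sets passed (1.62%), 288 of them higher in P (0.928%) and 214 lower (0.689%). Among these the median size of the difference was 0.52 on the log2 scale, against 0.35 at the same probe sets as labelled, and 85 exceeded 1. Both groups were fully apart at 227 probe sets (0.731%). Read through the brightest probe set of each gene, 190 of 14217 named genes passed, 105 higher in P (0.739%) and 85 lower (0.598%).

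To keep the probe sets that chose arrays apart from those tested, probe sets of odd-numbered chromosomes were also tested after leaving out arrays judged on even-numbered ones, and the reverse. In that cross-chromosome fit 244 of 20136 probe sets passed, 136 higher in P (0.675%) and 108 lower (0.536%), against 1 (0.00497%) as labelled on the same probe sets. Odd-numbered and even-numbered chromosomes chose the same 4 arrays, so the arrays that entered were those of the 8 against 8 comparison. Where levels on an array vary together across chromosomes, the split does not free the tested probe sets from the choice of arrays. Leaving out those arrays can then raise differences in this fit too. For each gene below, the adjusted p without misfits is taken from this fit and called its cross-chromosome p.

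Mtarc2, a molybdenum enzyme of the outer mitochondrial membrane that reduces amidoximes, had the smallest adjusted p as labelled. Its level was 10.93 at the lowest, 11.07 at the median and 11.24 at the highest in P, and 11.20, 11.48 and 11.72 in NP. Only P 2 (11.24) and NP 9 (11.20) crossed, and P 1 (11) and P 9 (11.04), misfits at most separating genes, lay with the other P arrays here. The difference was -0.39 ± 0.06 (SE), with limma's adjusted p of 0.0601, which does not pass. Without misfits the difference was -0.42 ± 0.06, with cross-chromosome p of 0.00183. Its paralog Mtarc1 was at -0.39 ± 0.11, adjusted p = 0.502, and did not pass without misfits either (0.170). Of the 12 measured molybdenum enzymes and cofactor genes, 5 were positive with a median of -0.0051, against 7604 of 14217 and 0.0057 over all genes.

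Siglec5, which encodes a sialic acid-binding lectin of myeloid cells, had the largest difference in favour of P among the genes past the test without misfits. It was at 5.34, 8.03 and 8.28 (lowest, median, highest) in P and at 5.30, 5.57 and 8.02 in NP. Its arrays fell into a high and a low set. P 1 (5.57) and P 9 (5.34) were in the low set with NP, NP 1 (7.50) and NP 9 (8.02) in the high set with P, and NP 6 (6.47) stood between. The difference was 1.53 ± 0.44 as labelled, adjusted p = 0.478, and 2.49 ± 0.14 without misfits, a 5.62-fold higher level in P with a cross-chromosome p of 4.2e-08.

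Ccl6 and Ccl9, chemokines of rodents that attract myeloid cells, lie next to each other in the RefSeq gene order of the GRCr8 assembly. Ccl6 was at 5.88, 7.67 and 8.42 in P and at 5.86, 6.21 and 7.37 in NP. Ccl9 was at 4.58, 6.11 and 6.39 in P and at 4.55, 4.90 and 6.04 in NP. For both genes P 1 and P 9 were low and NP 9 was high, and NP 1 was high for Ccl6 (7.37) and between both groups for Ccl9 (5.46). As labelled the differences were 1.02 ± 0.27 and 0.79 ± 0.23, neither past the test (adjusted p = 0.460 and 0.50). Without misfits they were 1.59 ± 0.13 and 1.27 ± 0.11, or 3.01-fold and 2.41-fold higher in P, with cross-chromosome p of 3.1e-06 and 4.59e-06. Related genes can share probe matches, so how far each of these probe sets measures its own gene alone was not tested.

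The 250 bases before the annotated start of Ccl6 and Ccl9 are shown because these adjacent genes differed together. They were chosen after their values were seen. Both come from RefSeq (GRCr8) and lie on the minus strand, at chr10:68883367-68883616 for Ccl6 and chr10:68868878-68869127 for Ccl9. Each is written 5′ to 3′, and the capitals mark the best ungapped match of 40 bases between them, in which 35 bases are identical.
Ccl6: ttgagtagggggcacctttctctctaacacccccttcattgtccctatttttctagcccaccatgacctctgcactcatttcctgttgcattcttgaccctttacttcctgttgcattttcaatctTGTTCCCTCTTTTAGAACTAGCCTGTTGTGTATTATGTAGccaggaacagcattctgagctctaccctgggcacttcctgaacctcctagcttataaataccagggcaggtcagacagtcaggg
Ccl9: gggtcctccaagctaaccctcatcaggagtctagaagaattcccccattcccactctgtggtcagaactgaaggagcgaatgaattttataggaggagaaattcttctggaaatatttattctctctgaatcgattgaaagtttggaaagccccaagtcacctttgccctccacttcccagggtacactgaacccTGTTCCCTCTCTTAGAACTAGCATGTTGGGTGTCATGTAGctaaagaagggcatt
The shared stretch starts 124 bases before the start of Ccl6 and 55 bases before that of Ccl9. A search of both strands for TATAAA found it 32 bases before the start of Ccl6 and, reversed, 165 bases before that of Ccl9. Of 33469 rat promoter windows of the same length, 12.9% hold these letters. A match is a description of the letters and not a binding site.

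Clec4a3, a C-type lectin receptor of myeloid cells, was at 6.59, 6.82 and 7.64 in P and at 7.14, 7.44 and 8.25 in NP. It was lower in P, at -0.62 ± 0.14 as labelled (adjusted p = 0.307) and at -0.82 ± 0.13 without misfits (cross-chromosome p = 0.00282). The Fc receptor-like gene Fcrl2 was at -0.63 ± 0.30 as labelled (adjusted p = 0.999) and at -1.21 ± 0.15 without misfits (cross-chromosome p = 0.000242), where the 8 P arrays lay between 6.38 and 6.80 and the 8 NP arrays between 7.27 and 8.38. Cathepsin E (Ctse), an intracellular protease, was at 0.30 ± 0.07 as labelled (adjusted p = 0.307) and at 0.37 ± 0.07 without misfits (0.0144).

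Of 12 measured microglial markers, 8 had a negative difference, with a median of -0.10 against 0.0057 over all genes, and none passed as labelled. Without misfits 2 passed, both lower in P, where 85 of 14217 genes were called lower (0.598%). The median was then -0.18 and 3 of the 12 markers were positive. These were Cd68 (0.22), Itgam (0.14) and C1qc (0.11), and C1qa (-0.09) and C1qb (-0.05) lay near 0. Trem2, a lipid-sensing receptor of microglia, was at -0.28 ± 0.10 as labelled (adjusted p = 0.787) and at -0.45 ± 0.09 without misfits (cross-chromosome p = 0.0123), with 8 P arrays from 7.83 to 8.24 and 8 NP arrays from 8.28 to 8.94. The lysosomal protease gene Ctss was at -0.18 ± 0.07 as labelled (adjusted p = 0.850) and at -0.29 ± 0.06 without misfits (0.0243). A second Trem2 probe set gave -0.77. The markers did not all move together, and in bulk tissue fewer microglia and less RNA per cell cannot be told apart for Trem2 and Ctss.

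Of the 18 measured genes of the MHC and antigen presentation list, 1 passed without misfits. Over all 14217 genes, 105 passed higher in P (0.739%) and 85 lower (0.598%). RT1-CE16 was higher in P by 1.15 ± 0.27 without misfits (cross-chromosome p = 0.0431), against 0.55 ± 0.34 as labelled, and its highest array was P 5 (10.43). RT1-T24-3, outside the list, was at -0.94 ± 0.40 as labelled (adjusted p = 0.924) and at -1.52 ± 0.30 without misfits (0.0173). RT1-T24-4 ranged from 4.73 to 9.31 among P arrays and from 4.89 to 5.71 among the 8 NP arrays, where its difference of 2.1 ± 0.54 did not pass (0.0700). With P 5 also left out, 200 of all 14217 genes passed (1.41%) and 5 of the 18 list members did in place of 1: RT1-CE16 and RT1-T24-4 (2.49) were higher in P, and RT1-Da (-0.63), Cd74 (-1.08) and Psmb9 (-0.41) were lower. P 5 held the highest level of RT1-Da (10.64), Cd74 (11.02) and Psmb9 (8.96), beside its choroid plexus and blood markers, whose part was not tested. Many RT1 genes are near copies of each other and their probe sets cannot be assigned with certainty.

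**Figure D3:**
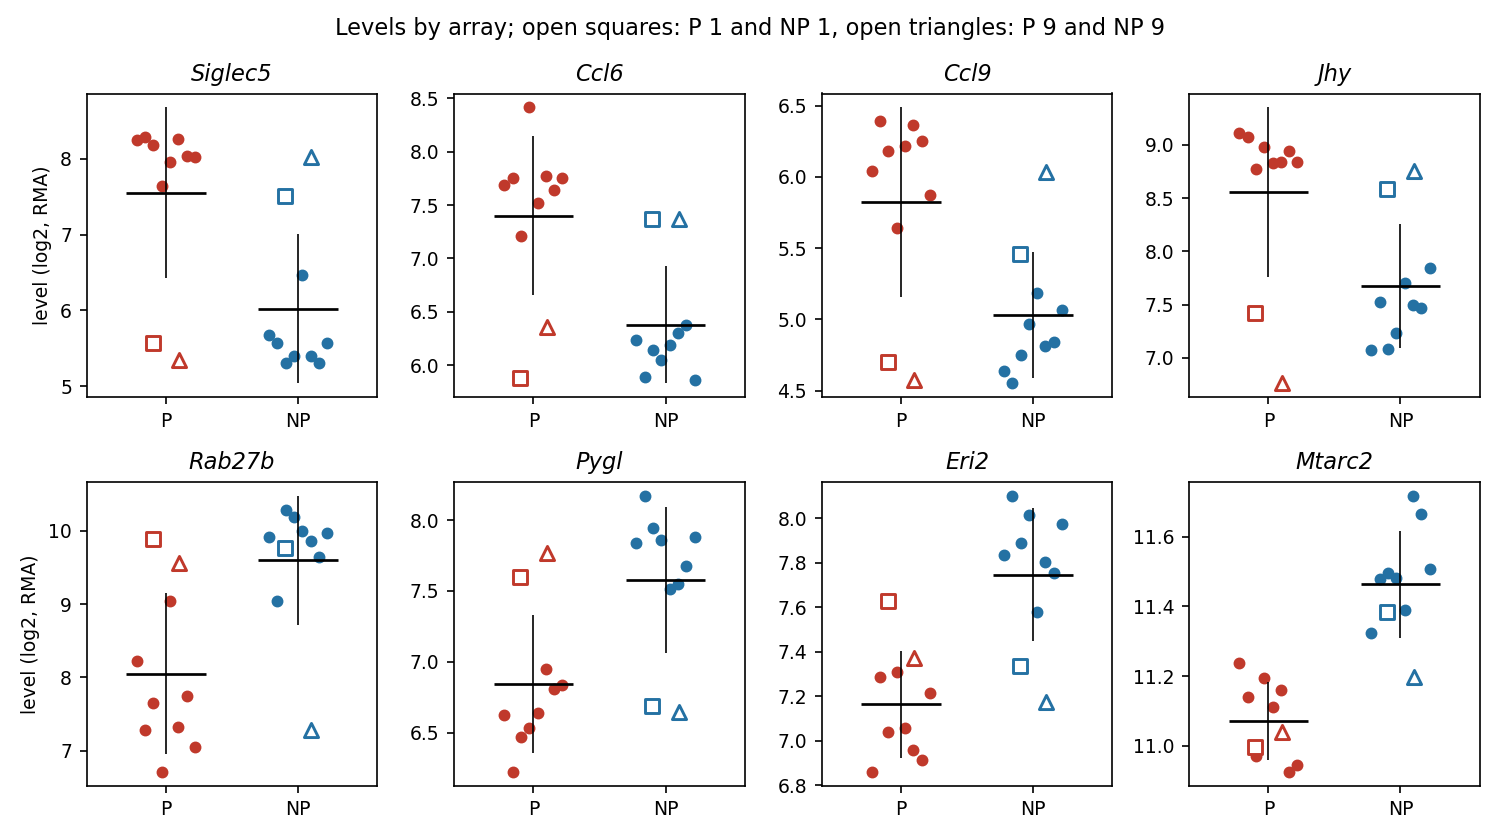
Log2 level of 8 genes in each P and NP array as labelled; lines are means, bars are SD (n = 10 per line), open squares are P 1 and NP 1 and open triangles P 9 and NP 9. For Siglec5, Ccl6, Ccl9 and Jhy the misfit P arrays lie with the NP arrays and NP 9 with the P arrays, while for Mtarc2 both misfit P arrays lie with the other P arrays.

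Rab27b, a small GTPase that docks secretory vesicles, had the largest difference in favour of NP among the genes past the test without misfits. It was at 6.71, 7.70 and 9.89 in P and at 7.29, 9.89 and 10.28 in NP. P 1 (9.89), P 9 (9.57) and NP 9 (7.29) lay at the level of the other line, and NP 1 (9.76) at the level of its own. The difference was -1.55 ± 0.41 as labelled (adjusted p = 0.452) and -2.23 ± 0.26 without misfits, 4.70-fold lower in P (cross-chromosome p = 0.000131). Its second probe set pointed the same way (-0.42 as labelled, -0.55 without misfits). The closest kept arrays were P 6 (9.04) and NP 3 (9.05).

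Gsta4, a glutathione transferase that clears products of lipid peroxidation, was at 9.99, 11.31 and 12.13 in P and at 9.81, 10.53 and 11.35 in NP. P 9 (9.99) was low and NP 1 (11.35) and NP 9 (11.32) were high, P 1 (11.08) stayed at the P level, and P 5 was highest (12.13). It was higher in P by 0.64 ± 0.22 as labelled (adjusted p = 0.676) and by 1.01 ± 0.17 without misfits, 2.01-fold (cross-chromosome p = 0.00409). Pygl, the liver form of glycogen phosphorylase, was at 6.22, 6.72 and 7.77 in P and at 6.64, 7.76 and 8.17 in NP. Here P 1 (7.60) and P 9 (7.76) were high and NP 1 (6.69) and NP 9 (6.64) low. The difference was -0.73 ± 0.21 as labelled (adjusted p = 0.478) and -1.17 ± 0.11 without misfits, 2.25-fold lower in P (7.15e-06).

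Further enzyme and mitochondrial genes passed without misfits and not as labelled. The quinone reductase Nqo2 was at -0.76 ± 0.26 as labelled (adjusted p = 0.657) and at -1.13 ± 0.23 without misfits (cross-chromosome p = 0.0220). The N-acetyltransferase family gene Nat8f3 was at -0.67 ± 0.31 (0.984) and at -1.18 ± 0.16 (0.000483). Uqcrfs1, the iron-sulphur subunit of respiratory complex III, was at 0.20 ± 0.07 (0.737) and at 0.31 ± 0.06 (0.0181). Romo1, a regulator of mitochondrial oxidants, was at 0.22 ± 0.06 (0.427) and at 0.30 ± 0.05 (0.00607). Lanosterol synthase (Lss), of cholesterol synthesis, was at 0.24 ± 0.12 (1.0) and at 0.43 ± 0.10 (0.0443). Over all genes, 7604 of 14217 were positive as labelled with a median of 0.0057. Without misfits 105 of these genes passed higher in P (0.739%) and 85 lower (0.598%). Of the respiratory chain list, 24 of 31 measured genes were positive as labelled with a median of 0.022. Without misfits 20 of 31 were positive with a median of 0.023, and 1 passed. Its member Cox5a went the other way, at -0.25 ± 0.09 as labelled (adjusted p = 0.801) and at -0.23 ± 0.11 without misfits (cross-chromosome p = 0.643). Of the glutathione and antioxidant list, 21 of 33 were positive with a median of 0.039, and 1 passed without misfits, Gsta4. With P 5 also left out 2 did, against 200 of 14217 genes (1.41%). The gene added was Sod3, an extracellular superoxide dismutase, then at -0.42 (adjusted p = 0.00779). Sod3 was at -0.01 ± 0.25 as labelled and at -0.09 without misfits alone, and its level was 10.58 in P 5 against 7.76 to 8.54 in the other arrays. Glutathione peroxidase Gpx1 (0.36 ± 0.15, adjusted p = 0.887) was at 0.22 without P 5, which held its highest level (13.45).

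Further named genes cover RNA handling, structure and signalling. The exonuclease family gene Eri2 was at 6.86, 7.14 and 7.63 in P and at 7.17, 7.82 and 8.10 in NP, with P 1 (7.63) high and NP 1 (7.34) and NP 9 (7.17) low. It was lower in P, at -0.58 ± 0.12 as labelled (adjusted p = 0.307) and at -0.79 ± 0.09 without misfits (cross-chromosome p = 4.17e-05), while its dim second probe set gave 0.06. For the genes that follow in these paragraphs the value as labelled comes first, then the value without misfits with its cross-chromosome p. As labelled none of them passed. The extracellular matrix gene Fbln2 was at -0.51 ± 0.12 and -0.68 ± 0.11 (0.00264), and the farnesyltransferase subunit gene Fntb at -0.41 ± 0.10 and -0.58 ± 0.07 (7.49e-05). The zinc finger gene Zfp180 was at -0.39 ± 0.10 and -0.53 ± 0.09 (0.00561), and Fdxacb1 at -0.36 ± 0.09 and -0.53 ± 0.07 (0.000483). The sperm tail gene Odf1 was at -0.20 ± 0.05 and -0.28 ± 0.04 (0.00282). The actin-bundling gene Pls1 was at -1.21 ± 0.35 and -1.72 ± 0.29 (0.00447), and Nom1, a nucleolar gene, at -1.13 ± 0.38 and -1.68 ± 0.33 (0.0173).

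Jhy, whose loss causes hydrocephalus in mice, was higher in P by 0.88 ± 0.29 as labelled (adjusted p = 0.626) and by 1.5 ± 0.10 without misfits, 2.82-fold (cross-chromosome p = 4.5e-07), and its 8 P arrays (8.78 to 9.11) lay above the 8 NP arrays (7.08 to 7.84). The adhesion receptor gene Adgrg6 was at 1.09 ± 0.38 and 1.61 ± 0.35 (0.0291), and the lipoxygenase family gene Aloxe3 at 0.51 ± 0.12 and 0.62 ± 0.10 (0.00245). Ccdc77 was at 0.72 ± 0.25 and 1.12 ± 0.22 (0.0134), and its second probe set gave 1.55 without misfits. Gtpbp2, a GTP-binding protein gene, was at 0.23 ± 0.06 and 0.31 ± 0.05 (0.00390), and the DNA repair gene Aplf at 0.24 ± 0.06 and 0.28 ± 0.07 (0.0431). The adhesion receptor gene Pvr was at 0.41 ± 0.11 and 0.49 ± 0.11 (0.0409). Vof16 was at 1.06 ± 0.27 and 1.42 ± 0.26 (0.00769), but its other probe set pointed the opposite way (-1.32). The kinase gene Mak, the 1 gene of these 31 that did not pass without misfits, gave 0.21 ± 0.05 as labelled (adjusted p = 0.307) and 0.21 ± 0.06 without misfits (0.102). Its lowest P array was at 4.38 and its highest NP array at 4.49, and P 1 and P 9 (both 4.58) lay with the P arrays. Mak was dim on all arrays, from 4.25 in NP 2 to 4.86 in P 5, near the level of Xist (4.03 to 4.39). Without P 5 its difference as labelled was 0.18.

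**Figure D4:**
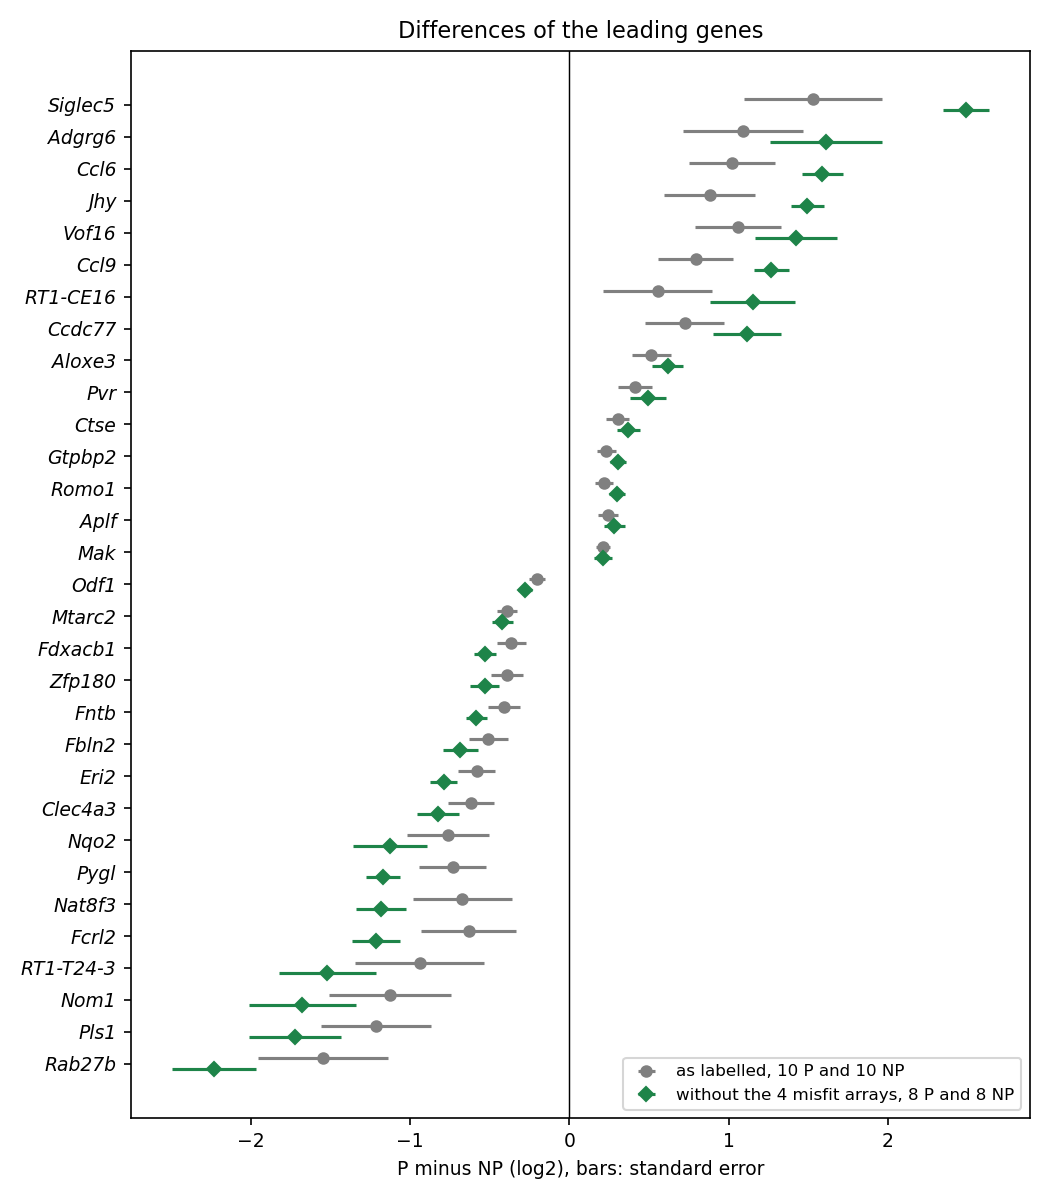
P minus NP difference (log2, bars are SE) of the 31 genes with the smallest p as labelled or the largest differences past the test without misfits, as labelled (grey circles, 10 against 10) and without the 4 misfits (green diamonds, 8 against 8). Most differences are larger without misfits, as with Siglec5 (1.53 and 2.49), while Mak (0.21 and 0.21) and Mtarc2 (-0.39 and -0.42) hardly move.

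Of the 31 genes with the smallest p as labelled or the largest differences without misfits, 0 had groups that did not overlap as labelled and 18 without misfits. Over all 31042 probe sets these counts were 0 (0%) and 227 (0.731%). The 31 genes were picked by p or size in these same fits, so a higher share follows from the picking. Among the 16 with the largest differences, P 1 and P 9 each lay on the NP side of the midpoint at 15, NP 9 on the P side at 13 and NP 1 on the P side at 8. At the 502 probe sets that passed without misfits, P 9 was nearer the NP mean at 437, P 1 at 393 and NP 9 nearer the P mean at 448. NP 1 was nearer the P mean at 306 (61.0%), with a median position of 0.17. NP 6, which was kept, was nearer the P mean at 88 (17.5%). The 16 genes and the 502 probe sets were picked without P 1, P 9, NP 1 and NP 9. Those arrays were left out because they lay on the side of the other line, so their places here follow largely from that choice. NP 6 took part in the picking, so its share cannot be compared with those of the arrays left out.

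Of the GABA, glutamate and neuropeptide genes measured, none passed as labelled and 1, the glutamate receptor gene Grm5, passed without misfits. Neuropeptide Y (Npy), which dampens stress responses, was at 10.94, 11.61 and 12.53 in P and at 11.01, 11.63 and 12.80 in NP, and both lines covered the same range. Its difference was -0.06 ± 0.24 as labelled and -0.36 ± 0.25 without misfits. Of its receptors, Npy1r gave -0.07 ± 0.19 as labelled and -0.16 ± 0.22 without misfits, Npy2r 0.03 ± 0.06 and 0.04 ± 0.07, and Npy5r 0.03 ± 0.16 and 0.02 ± 0.19. Corticotropin-releasing hormone (Crh) spanned 6.55 to 11 in P and 6.13 to 10.74 in NP, and its difference was 0.09 ± 0.60 as labelled and 0.59 ± 0.66 without misfits, within the SE in both.

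Among opioid genes, prodynorphin (Pdyn) gave -0.22 ± 0.21 as labelled and -0.02 ± 0.15 without misfits. Enkephalin (Penk) gave -0.04 ± 0.20 and 0.09 ± 0.20, and the mu opioid receptor gene Oprm1 -0.10 ± 0.06 and -0.07 ± 0.07. Neurotensin (Nts, -0.04 ± 0.32 and 0.21 ± 0.31), somatostatin (Sst, 0.20 ± 0.27 and 0.39 ± 0.31) and Prkcd (-0.13 ± 0.13 and 0.02 ± 0.10) mark separate neuron classes. The GABA receptor subunit gene Gabra2 gave 0.24 ± 0.13 and 0.27 ± 0.15, and the glutamate receptor gene Grm2 0.24 ± 0.25 and 0.13 ± 0.22. Grm5, which encodes an excitatory glutamate receptor, was the 1 gene of the 30 measured in the glutamate list that passed without misfits (-0.71 ± 0.16, cross-chromosome p = 0.0368), from -0.43 ± 0.18 as labelled. Its second probe set gave -0.53 and did not pass. Over all 14217 genes, 85 passed lower in P without misfits (0.598%) and 105 higher (0.739%). In the GABA list 0 of 17 passed in either comparison, and in the neuropeptide list 0 of 23. Crhr1 and Crhr2 are not analysed here.

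Over all 33 gene lists, 526 genes were measured. None passed as labelled, and without misfits 9 did: Trem2, Ctss, Grm5, Gsta4, Mtarc2, RT1-CE16, Clec4a3, Uqcrfs1 and Lss. This compares with 190 of all 14217 genes. With P 5 also left out 15 passed, of 200 over all genes (1.41%): the 6 added were Sod3, Prkar2a (-0.28, a regulatory subunit of protein kinase A), RT1-T24-4, RT1-Da, Cd74 and Psmb9. Choroid plexus markers were positive in 11 of 11, with a median of 0.58, which became 0.04 and 7 of 11 without P 5. Striatal markers were lower in P in 12 of 12, with a median of -0.17 as labelled and -0.27 without misfits, and none passed. Their mean level ran from 10.27 to 11.71 in P and from 10.14 to 11.90 in NP. Oligodendrocyte markers were negative in 12 of 13 as labelled (median -0.06) and positive in 12 of 13 without misfits (0.08), again with none past the test. Over all 14217 genes, 7604 were positive as labelled (median 0.0057) and 7453 without misfits (0.0050). Markers of 1 cell type vary together, so such counts are not separate results.

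Some of the genes that passed without misfits lay beside each other. Of 14167 genes placed in the RefSeq order, 190 passed without misfits (1.3%), and of the 380 immediate neighbours of called genes 20 did (5.26%). These form 10 adjacent pairs, of which 9 differed in the same direction. Besides Ccl9 and Ccl6, they include the histone genes Hist3h2ba (0.39 as labelled and 0.58 without misfits) and H2ac25 (0.15 and 0.24), and Chd1l (-0.36 and -0.57) and the monooxygenase gene Fmo5 (-0.52 and -0.77). Spatc1l (0.28 and 0.52) lies beside Lss (0.24 and 0.43), and Arxes1 (0.26 and 0.46) beside Arxes2 (0.16 and 0.33). Zfp715 (-0.22 and -0.31) and Siglec5 (1.53 and 2.49) were the pair in opposite directions.

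The P minus NP difference was also set against the mean of the other 4 pairs (HAD1 and LAD1, HAD2 and LAD2, AA and ANA, sP and sNP). This used 1 limma fit of all 96 arrays. A pass is a difference from that mean, to which an opposite difference in another pair can add. Passing alone therefore does not make a difference particular to P and NP. As labelled, 194 probe sets differed (0.625%), 110 higher (0.354%) and 84 lower (0.271%) in the P minus NP difference, and without the misfits 692 did (2.23%). Without P 5 the count as labelled was 153. Of the 62 genes named by rule, 13 passed as labelled, and without misfits 29 did, these 13 among them. Many of the 62 were named for their P minus NP difference or its p. The contrast contains that difference, so these counts follow partly from the naming. The values that follow are as labelled unless stated. Siglec5 exceeded the other pairs by 2.43 ± 0.38 (adjusted p = 3.45e-05), and its difference was -2.07 in HAD2 and LAD2 and -1.19 in AA and ANA. For Rab27b it was -1.52 ± 0.28 (0.000509), with the other pairs between -0.53 and 0.40. The chemokine pair passed too, Ccl6 at 1.41 ± 0.33 (0.0175) and Ccl9 at 1.05 ± 0.24 (0.0131), with sP minus sNP at -1.11 and -0.70.

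Gsta4 differed from the other pairs by 0.88 ± 0.19 (adjusted p = 0.00762), with a difference of -0.90 ± 0.18 in HAD1 minus LAD1, -0.34 ± 0.17 in HAD2 minus LAD2, -0.13 ± 0.17 in AA minus ANA and 0.41 ± 0.19 in sP minus sNP, the last in the direction of P minus NP. Eri2 (-0.58 ± 0.11, 0.00127) and Mak (0.22 ± 0.05, 0.00519) were near 0 in each of the other pairs, between -0.04 and 0.08 for Eri2. Fbln2 (-0.53 ± 0.10), Zfp180 (-0.41 ± 0.09), Aloxe3 (0.53 ± 0.13), Pygl (-0.63 ± 0.16) and Nqo2 (-0.81 ± 0.20) also passed. Nrg1, a growth factor gene, passed at -1.05 ± 0.26 (0.0217), with 1.55 in HAD1 minus LAD1, but its other 7 probe sets gave between -0.09 and 0.07 for P minus NP. Mtarc2 (-0.35 ± 0.10, 0.0815), Jhy (0.39 ± 0.30, 0.983) and Clec4a3 (-0.45 ± 0.19, 0.539) did not pass as labelled. Without misfits Mtarc2 (-0.38 ± 0.11, 0.0398) and Jhy (1.0 ± 0.29, 0.0468) passed and Clec4a3 (-0.66 ± 0.20, 0.0714) did not. Jhy was also higher in the preferring line in sP minus sNP (0.95 ± 0.29) and HAD2 minus LAD2 (0.75 ± 0.27). It was at 0.20 ± 0.28 in HAD1 minus LAD1 and 0.08 ± 0.27 in AA minus ANA. Only P and NP arrays were screened for misfits, so this comparison sets a screened pair against unscreened ones.

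**Figure D5:**
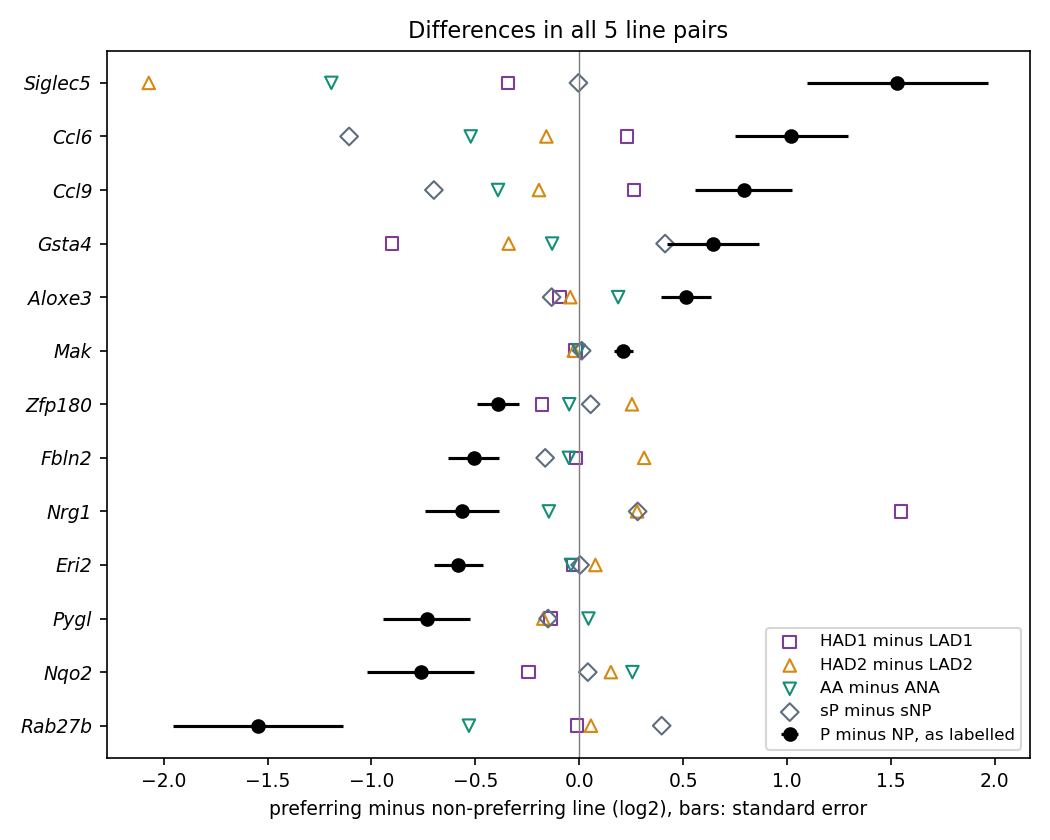
Preferring minus non-preferring difference (log2) in all 5 line pairs for the 13 named genes whose P minus NP difference, as labelled, differed from the mean of the other 4 pairs; filled circles are P minus NP with SE. Siglec5 is positive (1.53) where HAD2 minus LAD2 is -2.07, Gsta4 is positive (0.64) where HAD1 minus LAD1 is -0.90, and for Eri2 and Mak the other 4 pairs lie near 0.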

How the data were processed

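RNA of 20 central amygdala samples (10 P, 10 NP, grouped by title; numbers taken from the titles) was read from a table of 96 arrays, labelled by the 2-cycle Affymetrix protocol from 25 ng of RNA per the labels. Per the submitters' processing notes, the authors used RMA, and the deposited log2 values are its output; its version, and whether 1 run held all arrays, were not given in the sources used here. Value columns without a sample numbered 0. No detection calls were used, so dim probe sets were not told apart from unexpressed ones, and the number of arrays limits precision. Where lines differ in DNA sequence at a probe, binding can differ too, and this was not tested.

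After 57 control probe sets were left out, 31042 remained, of which 20826 had 1 gene symbol, 436 several and 9780 none. Each of 14217 genes was read through the brightest (by mean of the 96 arrays) of its 1-symbol probe sets. Names, chromosome parity and gene order came from RefSeq (GRCr8), which matched 20758 probe sets; 20136 lay on a numbered autosome. Tests used limma 3.58.1 in R 4.3.3 (two-sided, intensity trend, Benjamini-Hochberg over all probe sets fitted) and were tested on simulated data. Position scores divided by the median absolute deviation plus 0.1. Same-numbered P and NP arrays were checked for shared deviations from their line means, and correlations ran from -0.11 to 0.50. The means were taken as labelled, misfits included, so this check cannot exclude that same-numbered animals were handled together. The main fits used no pairing.

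The members and lists were chosen with earlier results of these data known. Named genes were, per direction, the 8 smallest p as labelled, the 8 largest differences past the test without misfits, at most 2 members of each of 33 lists with unadjusted p under 0.05, and 19 measured genes always given, 62 in all; symbols without an informative name were skipped. Genes under Zfp715, Hist3h2ba and the other neighbour pairs, and further list members named by their calls, were chosen after their values were seen. Alternatives varied scaling, filters, trend, array weights, probe set choice and arrays left out.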

Additional observations from a re-analysis of the deposited data

Results flagged for a closer look

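Arrays far from the others of their line (Dixon's test at 95%) were found for 12 genes and 3 marker lists, 16 groups of the 142 tested. Chance alone gives such a flag in about 1 in 20 groups that are separate and not picked. Many genes here were named from these data, partly in fits without P 1, P 9, NP 1 and NP 9, and markers vary together. The count therefore cannot be read against that share. P 5 was far above the other P arrays for Ttr (15.05), the choroid plexus list (11.33), the blood list (9.45), Gpx1 (13.45) and Mak (4.86). NP 5 was far above the other NP arrays for Ttr (9.12). NP 9 was far below the other NP arrays for Rab27b (7.29), RT1-T24-3 (6.83) and Fntb (9.15) and far above them for RT1-T24-4 (8.58) and Gtpbp2 (9.65). P 9 was highest by a wide gap for the basolateral and cortical neuron list (9.95) and for Odf1 (5.26), and P 1 lowest for Penk (13.29). NP 4 was lowest for Oprm1 (5.87) and highest for Trem2 (8.94).

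The P minus NP difference differed from the mean of the other 4 line pairs, as labelled, for 13 named genes by limma's adjusted p. It was larger by 2.43 for Siglec5, 1.41 for Ccl6, 1.05 for Ccl9, 0.88 for Gsta4, 0.53 for Aloxe3 and 0.22 for Mak. It was lower for Rab27b (-1.52), Nrg1 (-1.05), Nqo2 (-0.81), Pygl (-0.63), Eri2 (-0.58), Fbln2 (-0.53) and Zfp180 (-0.41).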

How the results depend on the processing

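As labelled, 0 probe sets passed also after centring on array medians, a second quantile normalization, robust variances, no intensity trend or leaving out P 5. The count was 1 with 1 probe set per gene or with the brighter 50% of probe sets (Mtarc2 in both), 3 with array weights, 168 when all 10 groups shared 1 fit (141 of them among the 502), and 502 without the misfits, whichever chromosomes chose them; leaving out 1 array gave 0 to 25. Without misfits, 502 became 184 with 1 probe set per gene, 288 in the brighter 50% and 768 in the fit of all 10 groups. It became 233 with NP 9 kept, 241 with P 1 kept, 210 with P 9 kept and 416 with NP 1 kept, and 367 to 520 with 1 more array left out. Fewer probe sets tested and fewer samples are part of these alternatives' construction; the cause was not tested otherwise. The cross-chromosome count was 244 or 231 with 50 or 200 probe sets in the score. Against the other 4 pairs, 194 became 692 without misfits, 198 without HAD1 and LAD1 and 153 without P 5. Among list members, 0 became 1 with the mean over a gene's probe sets, 9 without misfits and 15 without misfits and P 5. With the replicate block, 0 probe sets passed as labelled and 448 without misfits, 388 of them among the 502. Of 10 P arrays, 2 correlated best with the NP array of their own number, which neither shows nor excludes a pairing. A permutation test took 100000 draws as labelled and all 12870 splits without misfits. In each comparison 5 of 19 genes always given had an unadjusted p under 0.05: Gsta4, Mtarc2, Eri2, Mak and Clec4a3. Over all probe sets limma gave 4.91% as labelled. All but Gsta4 were also named for their small p as labelled, so this count follows partly from the naming. Leaving out misfits raises differences by construction. Of 62 named genes, 56 kept their sign in every alternative, and Npy, Npy5r, Crh, Penk, Nts and Prkcd, none past a test, changed it in some. Many of the 62 were named for their difference or its p, and the alternatives reuse the same arrays. Kept signs therefore follow partly from the naming, and the share over all genes was not computed. The fits with all 10 groups or 1 misfit kept, and those without P 5 (with or without misfits) for lists and the other pairs, were added after seeing the data.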
